A study of Mus musculus with 23 samples.

Results

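Total messenger RNA was compared between fully grown mouse oocytes labelled Eif4enif1+/- (het) and wild-type (WT). Germinal vesicle (GV) oocytes are held in meiotic prophase with an intact nucleus. The comparison uses 4 of the 23 libraries of the series, 2 het and 2 WT, chosen by their labels as total mRNA in T&T-seq, a method that reads total and ribosome-bound mRNA from the same oocyte sample. Treatment is given as none, and het and WT differ in no other label than the specimen number. The structure of the mutant allele, the strain, the age of the females, the number of oocytes per library and whether the replicates came from separate animals are not stated by the labels. The other libraries were 4 of ribosome-bound mRNA and 15 of embryos. Those of ribosome-bound mRNA were fitted together with the total-mRNA libraries and share in setting the spread behind the p-values. P-values therefore measure only the spread between the oocyte libraries of both fractions, which may be technical. Beyond that fit, the ribosome-bound and embryo libraries were used only to set beside the genes that differed.

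Eif4enif1 encodes 4E-T, which attaches to eIF4E, the protein on the mRNA cap, and represses translation of the mRNAs it holds. It is a core component of P-bodies and of the RNA granules in which growing oocytes store untranslated mRNA. A fully grown oocyte transcribes little, so its mRNA content depends largely on what was stored during growth and on what is protected from deadenylation and decay.

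Het library 1 held 3.62 M counts and het library 2 19.8 M, against 44.3 M and 45.0 M in the WT libraries. A single count was worth 0.250 CPM (counts scaled to a library of 1000000) in het library 1 and at most 0.0481 CPM in the other 3, and 1887 of the tested genes had no count in het library 1 against 380 to 574 in the others. Replicates correlated across genes at 0.945 (het) and 0.973 (WT) in log2 CPM. Each gene was tested for a log2 difference, het minus WT, between 2 libraries a group, given below with its standard error (SE). The spread behind the SE and p-values was estimated from the total-mRNA and ribosome-bound libraries together. The 2 fractions of an oocyte sample were treated there as independent libraries. A gene is called where edgeR's adjusted p was under 0.05. Of 12 oocyte-defining genes 0 were called in edgeR or DESeq2 (1 at an unadjusted p under 0.05), with a median log2 difference of -0.15, and the egg-coat gene Zp3 stood at 5066 and 4741 CPM in het libraries (WT, 5201 and 5724 CPM).

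Eif4enif1 itself (chromosome 11, 3202392 to 3244588, plus strand of mm10) had 87.3 and 96.1 CPM in het libraries (WT, 217 and 222 CPM), and the groups did not overlap. The log2 difference was -1.26 (SE 0.26, adjusted p = 0.0283). Leaving out het library 1, het library 2, WT library 1 or WT library 2 gave an adjusted p of 0.109, 0.237, 0.0526 and 0.111, with log2 differences between -1.28 and -1.18. Which alleles the reads come from was not tested. Of 44 tested genes within 1 Mb of it, only Sec14l3 was called (log2 -2.57, SE 0.50), and the median of the 44 was -0.39.

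Of 22409 genes tested, 572 (2.55%) were called, and the calls of each gene list below are to be read beside that share. They comprised 317 higher in het (1.41%) and 255 lower (1.14%). Genes that rose stood at a median of 1.65 CPM (WT) and 8.46 CPM (het). For genes that fell the medians were 25.5 CPM (WT) and 8.49 CPM (het). Each set was chosen from these same values, so which genotype is the lower follows from the call. Mean levels of all tested genes had a median of 5.06 CPM. The median log2 change was 2.23 among genes that rose and -1.57 among genes that fell. With only 2 libraries a group, 4888 genes (21.8%) lay higher in both het libraries than in either WT library and 6386 (28.5%) lower, so separation of the groups alone sets no gene apart. The count was 202 without het library 1, 69 without het library 2, 644 without WT library 1 and 207 without WT library 2. All 572 genes kept their sign in each of these 4 fits, which reuse the libraries that chose them, so kept signs are no independent support. RLE, another way of scaling libraries to each other, put 65.7% of the calls higher in het, against 55.4% with the TMM scaling used here.

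**Figure D1:**
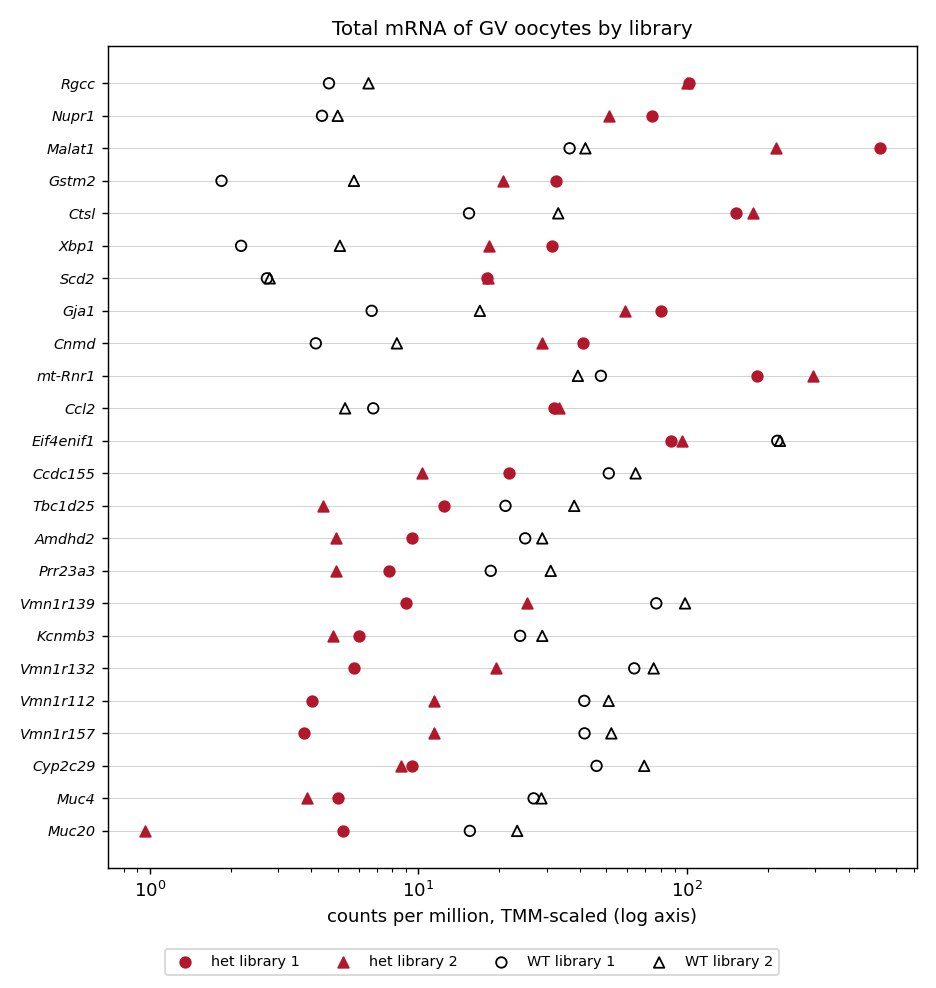
CPM in each of the 4 total-mRNA libraries (log axis) of Eif4enif1, 11 of the 12 genes with the highest log2 change and the 12 with the lowest among called genes averaging 10 CPM or more. Filled symbols are het, open symbols WT, circles library 1 and triangles library 2; for Rgcc the het libraries lie at 101 and 100.2 CPM, far right of WT at 4.65 and 6.52, and either het library can be the more extreme.

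The highest log2 change among called genes averaging 10 CPM or more was that of Rgcc, a regulator of cell-cycle kinases that responds to complement. It had 101 and 100.2 CPM in het libraries (WT, 4.65 and 6.52 CPM; log2 4.17, SE 0.35, adjusted p = 1.65e-04). Het replicates were nearly equal for this gene and far above both WT libraries. Nupr1, a small stress-induced chromatin protein, had 73.8 and 51.3 CPM in het libraries (WT, 4.38 and 5.01 CPM; 3.73, SE 0.29, adjusted p = 1.58e-04). Also among the highest were Malat1, Gstm2, the lysosomal protease Ctsl (152 and 176 against 15.4 and 33.2 CPM, log2 2.75), Xbp1, the fatty-acid desaturase Scd2 (2.71), the gap-junction protein Gja1 (2.55), the cartilage protein Cnmd (2.47), the mitochondrial ribosomal RNA mt-Rnr1 (2.46) and the chemokine Ccl2 (2.43). In all of these the het libraries lay above both WT libraries, as the rule that named them required. Rgcc, Nupr1, Malat1, Ctsl, Xbp1, Scd2 and Ccl2 stayed called in all 11 alternative analyses.

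Genes of the integrated stress response, the programme by which cells under amino-acid or translational stress make more of the transcription factor ATF4, had 5 of 44 tested members higher and 0 lower. At an unadjusted p under 0.05, 10 of the 44 were higher and 9 lower. The list summed to 1588 and 1315 CPM in het libraries, and to 1617 and 1838 CPM in WT libraries. The median of the 44 was 0.16, against -0.04 over all genes. The 5 called members included Nupr1, described above. Beside Nupr1 they were Cebpb, a C/EBP transcription factor (23.0 and 9.51 against 1.92 and 0.280 CPM, log2 3.82, SE 0.69), the translation repressor Eif4ebp1, the secreted glycoprotein Stc2 (2.87) and Cth, an enzyme of cysteine synthesis (1.36). Eif4ebp1 encodes 4E-BP1, which binds eIF4E in competition with eIF4G, and had 35.3 and 23.6 CPM in het libraries (WT, 7.11 and 8.11 CPM; 1.93, SE 0.31). Without het library 1 only 1 of these list members was called, and without het library 2, WT library 1 or WT library 2 there were 3, 6 and 5. Xbp1, whose spliced form drives the unfolded protein response, had 31.5 and 18.4 against 2.19 and 5.10 CPM (2.75, SE 0.41, adjusted p = 0.00646). It was the 1 called gene of 30 on the unfolded protein response list (3.33%, beside 2.55% of all genes), whose median was 0.12.

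Genes of glutathione metabolism and targets of NRF2, the transcription factor of the response to oxidants, had 6 of 42 members higher and 0 lower. Their median was 0.29, and at an unadjusted p under 0.05, 8 were higher and 5 lower. The glutathione transferase Gstm2 had 32.5 and 20.7 CPM in het libraries (WT, 1.85 and 5.76 CPM; log2 2.79, SE 0.51). Gclc, the catalytic subunit of the first step of glutathione synthesis, had 6.25 and 5.33 against 1.26 and 0.722 CPM (2.52, SE 0.49), and its modifier subunit Gclm rose by 1.27. The microsomal glutathione transferase Mgst1 (1.69) and the glutathione peroxidase Gpx7 (1.65) were also called. Srxn1, which repairs overoxidised peroxiredoxins, had 14 counts over both het libraries and 0 over both WT libraries, at least 16.4-fold higher against a floor of 3 counts over the WT group. No member was called without het library 1 or without het library 2, and 5 and 3 were called without WT library 1 and WT library 2. Prdx4, a peroxiredoxin of the secretory pathway, rose by 1.74 (26.3 and 30.4 against 8.55 and 8.43 CPM), the only call among 9 peroxide and superoxide enzymes, and was not called in any fit that left out a library. The metallothioneins Mt1 and Mt2, metal-binding proteins encoded side by side on chromosome 8, were both called. Mt1 had 25.3 and 32.6 against 4.15 and 8.81 CPM (2.17, SE 0.44) and Mt2 2.00 and 4.56 against 0.316 and 0.582 CPM (2.95, SE 0.68). The antisense gene Gm45774, which overlaps Mt2, was called as well. It holds 45.5% of the windows of 50 bases of Mt2, and reads from that part cannot be told apart.

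Matches to response elements were looked for in RefSeq promoter windows (GRCm38.p6), from 250 bases before to 50 bases after each annotated start, on both strands. They are shown for the called stress genes, 30 bases each, with the matched letters in capitals and each strand read as its gene is.
Nupr1, TGATGNAA of the C/EBP-ATF composite, chr7:126625562-126625591, minus strand: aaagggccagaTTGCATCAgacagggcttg
Gclm, TGACNNNGC of the antioxidant response element, chr3:122245413-122245442, plus strand: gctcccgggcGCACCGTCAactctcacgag
Mgst1, the same element, chr6:138140461-138140490, plus strand: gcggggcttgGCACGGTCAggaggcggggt
Srxn1, the same element, chr2:152105542-152105571, plus strand: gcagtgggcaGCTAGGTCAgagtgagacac
Mt1, TGCACNC or TGCGCNC of the metal response element, chr8:94179055-94179084, plus strand: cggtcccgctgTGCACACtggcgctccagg
Mt2, the same element, chr8:94172479-94172508, plus strand: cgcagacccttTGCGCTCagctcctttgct
The Nupr1 match begins 110 bases before the start and those of Gclm and Mgst1 134 and 56 bases before it, all on the strand opposite to the gene. The match in Srxn1, on that strand too, lies 28 bases after its start. In all, 3 of the 5 called glutathione and NRF2 genes with a window held the antioxidant element. Of the 5 called stress-response genes 3 had a window, and 1 of these held the C/EBP-ATF composite. These letters are common. The antioxidant element was in a window of 18.6% of 221 genes that rose, 15.9% of 170 that fell and 16.2% of 13359 tested genes with a window. The C/EBP-ATF composite was in 3.17%, 4.12% and 3.40%, and the metal response element in 43.4%, 37.1% and 37.2%. Of all 32851 windows of this length, 12.4%, 3.97% and 25.7% held these motifs in that order. E-box letters (CACGTG), bound by MYC-family factors, were in a window of 10.9%, 13.5% and 10.6% of the same 3 groups of genes and in 7.15% of all windows.

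The list of immediate-early and C/EBP factors holds transcription regulators and other genes that cells induce within minutes to hours of a stimulus. It had 8 of 33 members higher and 0 lower, with a median of 1.22. No C/EBP factor was among the 8, and Cebpb, called above, is not on this list. Groups did not overlap in 21 members that were higher in het and 1 that was lower, beside 21.8% and 28.5% of all genes. Beside Rgcc the smallest p were those of Mycl, Fosl2 and Ier3. The AP-1 factor Fosl2 had 3.25 and 3.12 CPM in het libraries (WT, 0.316 and 0.186 CPM; log2 3.64, SE 0.54). Ier3, an early-response regulator of survival, had 13.5 and 8.12 against 0.451 and 1.49 CPM (3.43, SE 0.54). Fosb (1.95), Klf9 (2.83), Myc (2.63) and Jund (2.22) were the others. Over the list, het libraries summed to 418 and 384 CPM, above WT at 210 and 275 CPM. The number called was 5 without het library 1, 4 without het library 2, 6 without WT library 1 and 9 without WT library 2.

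The list of 4E-T, its partners and mRNA storage proteins had 2 of 28 members called, with a median of 0.38. They were Eif4enif1 itself, the gene that the genotype names, lower, and the eIF4E-binding repressor Eif4ebp1, higher. No other member was called. The P-body helicase Ddx6, with 14.8 and 10.04 CPM in het libraries (WT, 4.11 and 5.50 CPM), had a log2 difference of 1.34 (SE 0.39, adjusted p = 0.0801). Cpeb1, the factor that holds mRNAs with short poly(A) tails, had a difference of -0.51 (SE 0.29), and eIF4E itself (Eif4e) -0.26 (SE 0.25). Without het library 1, het library 2, WT library 1 or WT library 2 this list had 0, 1, 4 and 1 calls. Among genes of mRNA decay and deadenylation, 11 of 48 were higher and 6 lower at an unadjusted p under 0.05, with a median of 0.30. Of the 48, 5 rose and 0 fell at the adjusted threshold. Members of the BTG/TOB family, which recruit the CCR4-NOT deadenylase, made up 3 of the 5. Btg3 had 15.8 and 11.5 against 2.05 and 1.16 CPM (3.06, SE 0.46), Tob1 18.3 and 20.3 against 7.54 and 4.66 CPM (1.67, SE 0.35) and Btg1 38.3 and 44.0 against 19.8 and 13.0 CPM (1.33, SE 0.29). Part of the Btg3 transcript occurs in other genes, 13.1% of its windows of 50 bases in Gm7334. The others were Tut4, which adds uridines to mRNA tails (2.63, SE 0.49), and Zfp36l2, which binds AU-rich elements (2.01, SE 0.47). Without het library 1, het library 2 or WT library 2 the list had 1, 1 and 2 calls.

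Nuclear long noncoding RNAs had 3 of 20 members higher and 0 lower, with a median of 0.83. Malat1, a nuclear RNA of speckles, had 522 and 215 CPM in het libraries (WT, 36.6 and 41.8 CPM; log2 3.23, SE 0.38, adjusted p = 0.00171), the 2 het libraries differing from each other by more than the WT libraries did. Its chromosomal neighbour Gm37376, which lies within it on the other strand, was called too. Tsix and Xist, antisense partners at the X-inactivation centre, rose by 5.41 (SE 0.77) and 4.56 (SE 0.83). Xist had 3.25 and 3.36 CPM in het, 0.271 CPM in WT library 1 and 0 in WT library 2. Of the windows of the Tsix transcript 45.4% are also in Xist, and without strand information reads from that part cannot be told apart. Without het library 2 the list had 1 call. Granulosa-cell markers, described below, were higher in het as well (6 of 29 called, median 1.20), and their part was not tested.

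Mitochondrially encoded subunits of oxidative phosphorylation (OXPHOS) had 5 of 13 members called, all higher. In all 13 both het libraries lay above both WT libraries, beside 21.8% of all genes. The 13 are all encoded by the mitochondrial genome and cannot be taken as separate measurements. mt-Nd1, a subunit of complex I, had 365 and 550.3 CPM in het libraries (WT, 150.01 and 164 CPM; log2 1.55, SE 0.29). The other called members were mt-Nd6 (1.82), mt-Nd5 (1.27), mt-Co1 (1.21) and mt-Co2 (1.34), and beside them the ribosomal RNAs mt-Rnr1 and mt-Rnr2 were called. Of the windows of 50 bases of mt-Co1, 51.1% occur in other genes. Het library 2 was the higher of the het libraries for each of mt-Nd1, mt-Nd6, mt-Nd5, mt-Co1 and mt-Co2. The share of counts from mitochondrial genes was 0.682% and 0.999% (het) against 0.306% and 0.311% (WT). The number called was 2 without het library 1, 0 without het library 2, 1 without WT library 1 and 0 without WT library 2, and 2 with the trend on base composition removed. Nuclear-encoded OXPHOS genes had 0 of 76 called in edgeR and 1 in DESeq2, with a median of 0.25 and 5 at an unadjusted p under 0.05. Sdha, a subunit of complex II, had a difference of -0.81 (adjusted p = 0.109).

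Cytosolic ribosomal proteins had 4 of 77 members higher and 0 lower, with a median of 0.49. The log2 difference was above 0 in 75 of the 77, beside 47.2% of all genes. Rpl9 had 45.5 and 39.6 against 11.3 and 11.9 CPM (log2 1.87, SE 0.29), and Rps23 (1.23), Rps27 (1.19) and Rps3a1 (1.12) followed. Their counts are uncertain because close copies exist: 71.0% of the windows of 50 bases of Rps3a1, 63.1% of those of Rps27 and 51.7% of those of Rps23 occur in other genes. For Rpl9 the share was 16.7%, and its copies Rpl9-ps4 and Rpl9-ps6 were called higher too. Leaving out het library 1, het library 2, WT library 1 or WT library 2 left 2, 1, 2 and 1 calls. Mitochondrial ribosomal proteins had 0 of 77 called in edgeR (7 at an unadjusted p under 0.05, 2 called in DESeq2) and a median of 0.0013, with Mrpl9 at -0.91 (adjusted p = 0.0527) and Mrpl28 at -0.85. Proteasome subunits had 0 of 39 called in edgeR (7 at an unadjusted p under 0.05, 2 called in DESeq2) and a median of -0.18. Of translation initiation genes, 1 of 41 rose, Pabpc1, the cytoplasmic poly(A)-binding protein (17.5 and 25.8 against 7.06 and 5.03 CPM, log2 1.86, SE 0.32), and 1 fell, the mTORC1 subunit Rptor (-2.12, SE 0.47). Without het library 2 or WT library 2 that list had 0 calls.

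**Figure D2:**
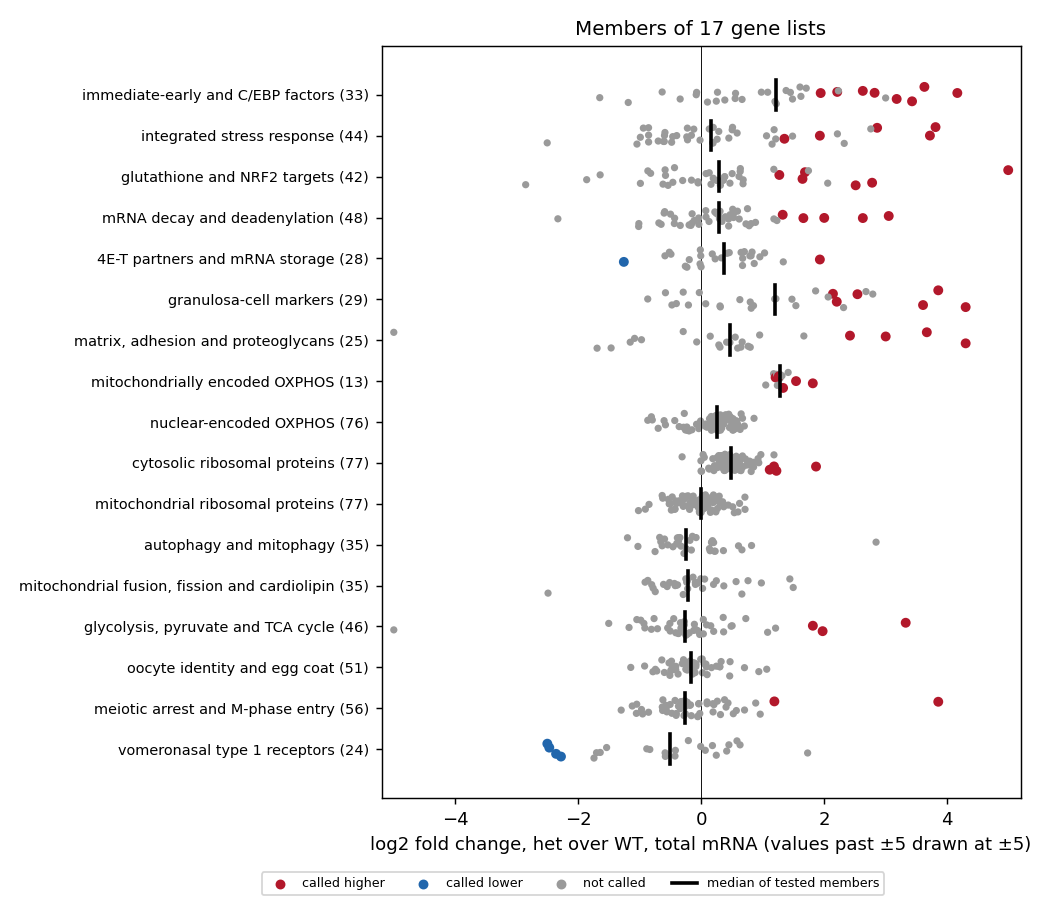
Log2 change in total mRNA (x axis, het over WT, values past 5 drawn at the edge) of every tested member of 17 gene lists, 1 point a gene, with the number tested in brackets and the median as a bar. Immediate-early factors, granulosa-cell markers and mitochondrially encoded OXPHOS genes have medians of 1.22, 1.20 and 1.29, and the oocyte, meiotic, glycolysis, autophagy and mitochondrial fusion lists have medians between -0.26 and -0.16.

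Granulosa-cell markers, genes of the follicle cells that feed the oocyte through gap junctions, had 6 of 29 members higher and 0 lower, with a median of 1.20. In bulk libraries, more cells of a type and more RNA per cell cannot be told apart. The activin antagonist Fst had 12.8 and 9.99 CPM in het libraries (WT, 0.406 and 1.42 CPM; log2 3.61, SE 0.52). Gja1, the connexin of the junctions among granulosa cells, had 79.8 and 59.0 against 6.70 and 16.9 CPM (2.55, SE 0.42). Npr2, the natriuretic peptide receptor that helps to keep oocytes in meiotic arrest, had 3.50 and 3.08 against 0.0451 and 0.396 CPM (3.86, SE 0.65), and the proteoglycan Vcan rose by 4.31 (SE 0.74). Hsd3b1, a steroidogenic enzyme (2.15), and the anti-Müllerian hormone receptor Amhr2 (2.21) were also called. The list's total was 948 and 700.2 CPM in het libraries (WT, 442 and 686 CPM), so WT library 2 came close to het library 2. Foxl2, a transcription factor that defines the lineage, stood at 0.250 and 0.240 against 0.519 and 0.373 CPM, and the aromatase gene Cyp19a1 at 33.5 and 26.2 against 40.7 and 47.8 CPM. The inhibin subunit Inha had 237 and 146 against 33.9 and 103 CPM (1.48, adjusted p = 0.144). Without het library 1 or het library 2, 3 markers were called, and without WT library 1 or WT library 2, 5 and 7.

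Genes of the matrix and of cell adhesion had 4 of 25 members higher and 0 lower, among them Vcan, with a median of 0.47. The matrix glycoprotein Thbs1 had 11.8 and 8.36 against 0.812 and 0.722 CPM (log2 3.68, SE 0.40, adjusted p = 9.34e-04), the integrin subunit Itgav 13.0 and 10.5 against 2.57 and 1.75 CPM (2.42, SE 0.38), and the syndecan Sdc4 rose by 3.01. Of the matrix list 3 members were called without either het library and 4 without either WT library. Granulosa-cell markers were higher beside the immediate-early, matrix and noncoding RNA genes, and their part in those results was not tested. Theca and stroma markers had 0 of 7 called and summed to between 2.00 and 4.75 CPM in every library, with Lum and Insl3 at 0 in all 4. Blood and endothelial markers had 0 of 10 called and summed to 46.8 and 28.7 CPM in het libraries (WT, 49.3 and 39.2 CPM), with Ptprc and Cdh5 among those at 0. In these 2 lists 1 and 2 members had an unadjusted p under 0.05, and DESeq2 called 0. Oviduct markers had 2 of 7 higher, the keratin Krt8 (2.37) and Tppp3 (1.38), and 1 lower, the ciliary dynein Dnah5 (-1.72). They summed to 45.8 and 32.4 against 19.6 and 25.6 CPM, and the tight-junction gene Cldn3 and the ciliary regulator Foxj1 were at 0 in every library. The 3 calls became 0, 1, 2 and 1 without het library 1, het library 2, WT library 1 and WT library 2. Of the windows of Krt8, 29.7% occur in other genes, most of them in Krt8-ps.

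Glycolysis, pyruvate and TCA-cycle genes had 3 of 46 higher and 0 lower, although their median was -0.26. Both het libraries lay below both WT libraries in 23 of the 46, beside 28.5% of all genes. Ldha, a lactate dehydrogenase subunit, had 29.3 and 23.8 against 5.28 and 9.62 CPM (log2 1.82, SE 0.43), Idh2, the mitochondrial NADP-dependent isocitrate dehydrogenase, rose by 1.98, and Pdk4, a kinase that inhibits pyruvate dehydrogenase, by 3.33 (SE 0.70). Their calls numbered 1, 0, 1 and 0 without het library 1, het library 2, WT library 1 and WT library 2. In sterol and lipid metabolism, Scd2 rose (18.005 and 18.12 against 2.73 and 2.80 CPM) and the mevalonate-pathway enzyme Mvd fell by 1.90 (SE 0.33), of 38 tested, and 1 call was left without het library 2. Lysosomal genes had Ctsl and Cd63 (1.86) higher and the peptidase Tpp1 lower (-1.66), of 39. Of 11 alternative analyses, Ctsl stayed called in 11, Cd63 in 7 and Tpp1 in 2. Solute carriers had 5 of 286 higher and 7 lower (4.20% called, beside 2.55% of all genes). The amino-acid transporter Slc38a2 rose by 2.62 (SE 0.43), Slc25a42, a mitochondrial carrier of coenzyme A, by 3.97 and the anion exchanger Slc26a7 by 3.37, while Slc10a3 fell by 1.51. The 12 calls became 5, 1, 14 and 5 without het library 1, het library 2, WT library 1 and WT library 2. Zfp genes, most of them zinc-finger transcription factors, had 5 of 342 higher and 2 lower (2.05% called, beside 2.55% of all genes). Fewer were called without het library 1, het library 2 or WT library 2, and more without WT library 1.

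Oocyte identity and egg-coat genes had 0 of 51 called in edgeR, 5 at an unadjusted p under 0.05 and 1 in DESeq2, with a median of -0.16. Tle6, of the subcortical maternal complex, and Dppa5a had the smallest p, with differences of -1.14 (adjusted p = 0.166) and 1.07 (adjusted p = 0.165). The growth factor Gdf9 stood at 4703 and 3275 CPM in het libraries (WT, 6571 and 6567 CPM; -0.72, SE 0.38, adjusted p = 0.316). Of 56 genes of meiotic arrest and M-phase entry, Npr2 and Cdc27 rose (3.57% called, beside 2.55% of all genes), and the median was -0.26. Cdc27, a subunit of the anaphase-promoting complex, had 142 and 151 against 55.3 and 72.4 CPM (1.19, SE 0.24). Of 38 DNA methylation and imprinting genes 0 were called in edgeR, 9 had an unadjusted p under 0.05 and DESeq2 called 4, with a median of 0.29. Without WT library 1 edgeR called 5 of them, and without any other library 0. The histone variant H2afz rose (258 and 286 against 71.7 and 92.9 CPM, 1.72, SE 0.31) and the linker histone Hist1h1c fell by 2.21, of 20 histone genes. H2afz shares 52.2% of its windows with other genes. For other genes named here the share was 36.5% (Cd63), 35.9% (Dppa4), 28.1% (Ctsl), 20.7% (Pabpc1) and 16.6% (Ldha). Dppa4, a chromatin regulator tied to the 2-cell programme, fell from 19.04 and 26.1 CPM to 5.75 and 9.23 CPM (-1.54, SE 0.34), the single call among 22 2-cell-stage genes. Autophagy genes and genes of mitochondrial fusion, fission and cardiolipin had 0 of 35 called each in edgeR, 9 each at an unadjusted p under 0.05, and 3 and 4 in DESeq2. Their medians were -0.24 and -0.22, with the autophagy genes Atg7 at -1.20 (adjusted p = 0.0584) and Gabarapl1 at 2.85 (adjusted p = 0.0527). The apoptosis regulator Bok rose by 2.32 (6.75 and 5.43 against 1.13 and 1.26 CPM). It was the 1 call of 37 p53 and apoptosis genes (2.70%, beside 2.55% of all genes). Without het library 2 the meiotic, histone, 2-cell and p53 lists had 0 calls each. Without het library 1 they had 1, 1, 0 and 1, without WT library 1 they had 1, 0, 1 and 3, and without WT library 2 they had 1 each.

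Among called genes averaging 10 CPM or more, the lowest log2 changes were those of 2 mucins, a cytochrome P450, 4 vomeronasal receptors and 5 others. Muc20 and Muc4, mucins encoded side by side on chromosome 16, fell by 3.03 (SE 0.58) and 2.70 (SE 0.32). Muc4 had 5.001 and 3.84 CPM in het libraries (WT, 26.8 and 28.7 CPM; adjusted p = 0.00171), the groups far apart and the replicates close. Only 6.57% of the windows of Muc20 occur in Muc4. These were the 2 called of 8 mucins. The cytochrome P450 Cyp2c29, a liver-type monooxygenase, had 9.50 and 8.65 against 46.0 and 69.3 CPM (log2 -2.68, SE 0.32, adjusted p = 0.00171), and Cyp4v3, a fatty-acid hydroxylase, fell by 3.62 (SE 0.49), of 40 P450 genes. Kcnmb3, an accessory subunit of calcium-activated potassium channels, fell by 2.33, Prr23a3 by 2.03, Amdhd2, a deacetylase of amino-sugar metabolism, by 1.99, Tbc1d25, a regulator of Rab GTPases, by 1.94, and Ccdc155, which ties meiotic chromosomes to the nuclear envelope, by 1.91. Muc4 and Cyp2c29 stayed called in all 11 alternatives, Kcnmb3 in 10 and Tbc1d25 in 5. Mucins had 1 call without het library 2 or WT library 2, and P450 genes 1 without het library 2.

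Among vomeronasal type 1 receptors, pheromone receptors of the nose, 4 of the 24 tested of 207 genes fell and 0 rose. Vmn1r157 had 3.75 and 11.4 CPM in het libraries (WT, 41.5 and 52.3 CPM; log2 -2.50, SE 0.38). Vmn1r112 (-2.47), Vmn1r132 (-2.36) and Vmn1r139 (-2.28) followed, het library 1 being the lowest library for each. The 4 cannot be taken as separate measurements. Every window of 50 bases of Vmn1r112 occurs in another gene, 93.8% of them in Vmn1r132, and for Vmn1r157 and Vmn1r139 the shares in other genes were 87.6% and 44.3%. Tmem254a, Tmem254b and Tmem254c, named here after their values were seen, fell by 1.72, 1.65 and 1.65, and are copies of one another, with all windows of Tmem254b and Tmem254c found in Tmem254a.

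Some called genes lay close together. How often tested genes do so was not counted, so the numbers below do not show that called genes cluster. Within 100 kb of each other and in the same direction there were 20 groups of genes that rose (48 genes) and 26 that fell (56 genes). The largest was the mitochondrial genome with 9 genes, then Gm45774, Mt2 and Mt1 on chromosome 8, and on the side of decreases Nudt8 with 2 predicted or clone-named genes on chromosome 19, Hist2h2aa2 with 2 on chromosome 3 and Coq8b with 2 and Hsd3b7 with 2 on chromosome 7. Where such a group holds overlapping genes on opposite strands, reads from the shared part cannot be told apart. That part was 45.5% of the windows of Mt2 (with Gm45774) and 5.83% of those of Malat1 (with Gm37376). Over nuclear chromosomes the share called ran from 1.82% (chromosome 14) to 3.33% (chromosome 7). Of protein-coding genes 3.19% were called (284 higher and 204 lower of 15321). Of 1296 antisense genes 4 were higher and 19 lower.

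Called genes also differed in base composition. Protein-coding genes that rose had a median transcript GC content of 47.7% (quartiles 42.8% and 53.2%) and those that fell 54.3% (49.96% and 57.8%), against 49.7% over all tested. Split into 5 bins of equal size by GC content, the lowest bin had 90 genes higher and 12 lower and the highest bin 35 higher and 82 lower. The median log2 change went from 0.17 in the lowest to -0.26 in the highest bin. In ribosome-bound mRNA of the same samples the medians were -0.02 and 0.02. Each of the 4 het to WT ratios between single libraries declined from the lowest to the highest bin among genes averaging 10 CPM or more. The ratio of het library 1 to het library 2 went from -0.13 to 0.19, and that of the WT libraries from -0.07 to -0.01. With the trend on GC content removed in each library, an analysis added after seeing the data, 453 genes were called, 302 higher and 151 lower (66.7% higher), and 409 of the 572 were among them. The part of base composition in the calls of single genes was not tested beyond this fit.

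**Figure D3:**
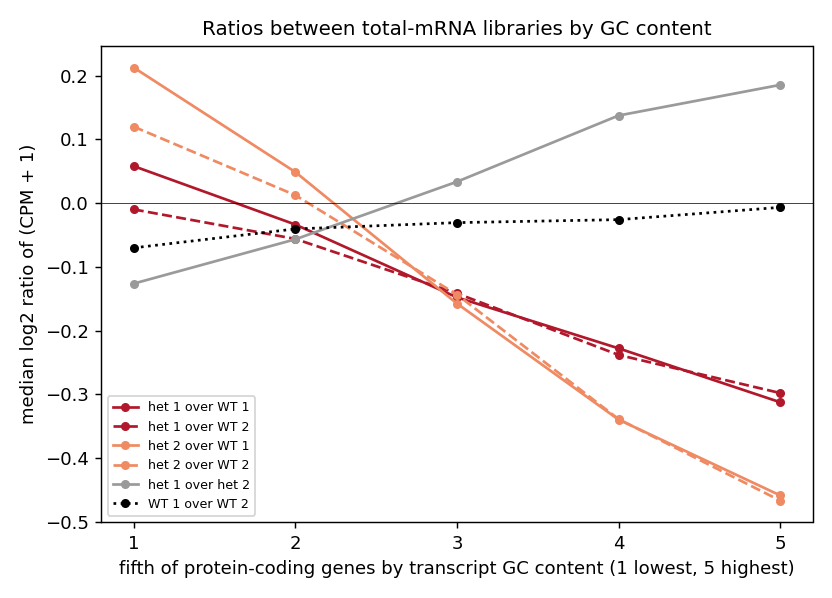
Median log2 ratio of CPM + 1 between pairs of total-mRNA libraries (y axis) in 5 equal bins of protein-coding genes by transcript GC content (x axis), for genes averaging 10 CPM or more. The het to WT ratios end between -0.47 and -0.30 in the highest bin, while het library 1 over het library 2 ends at 0.19 and WT library 1 over WT library 2 at -0.01.

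The 3′ untranslated regions of genes that rose were longer (median 1283 bases) than those of genes that fell (678 bases), with 1036 bases over all tested protein-coding genes, and their GC content was 40.7%, 49.4% and 44.0%. AU-rich elements (TATTTAT) were in the 3′ untranslated regions of 33.7% of the genes that rose and 7.82% of those that fell, against 29.7% of all. Cytoplasmic polyadenylation elements (TTTTAT or TTTTAAT in the last 100 bases) were in 21.1% and 15.1%, against 2718 of all 14305 genes, and the Pumilio-binding letters TGTANATA in 34.1%, 14.5% and 25.9%. These shares move with length and GC content, whose part was not tested. Letters were searched on the mRNA strand of 1 annotated transcript a gene, with at least 100 bases of 3′ untranslated region.

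The same oocyte samples had been read for ribosome-bound mRNA, so the 2 fractions share their cells. Of the 317 genes that rose in total mRNA 161 (50.8%) were also called higher there, where 2.61% of all genes were. Of the 255 that fell 73 (28.6%) were called lower, where 2.01% of all genes were, and 29 of the 572 had the opposite sign. Since both fractions come from the same oocytes, this overlap is a description and no independent support. The difference between the changes passed its test for 3 genes (0.0134%), and with each oocyte sample as a block for 7. One of them was called in total mRNA: Mycl, a MYC-family factor, with 5.75 and 5.24 CPM in het total mRNA (WT, 0.632 and 0.559 CPM; log2 3.18, SE 0.38). On ribosomes Mycl had 6.11 and 8.14 against 10.7 and 10.7 CPM (-0.59, SE 0.32). Several genes that rose in total mRNA had small values on ribosomes, without passing the test of the difference. Tob1 had 1.67 in total and 0.07 in ribosome-bound mRNA (adjusted p of the difference 0.422), Btg1 1.33 and 0.20 (0.494), Pabpc1 1.86 and 0.54 (0.457) and Cdc27 1.19 and -0.52 (0.231). Rgcc (3.79 on ribosomes), Nupr1 (3.09), Muc4 (-2.28) and Cyp2c29 (-2.76) were called in the same direction in both fractions.

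**Figure D4:**
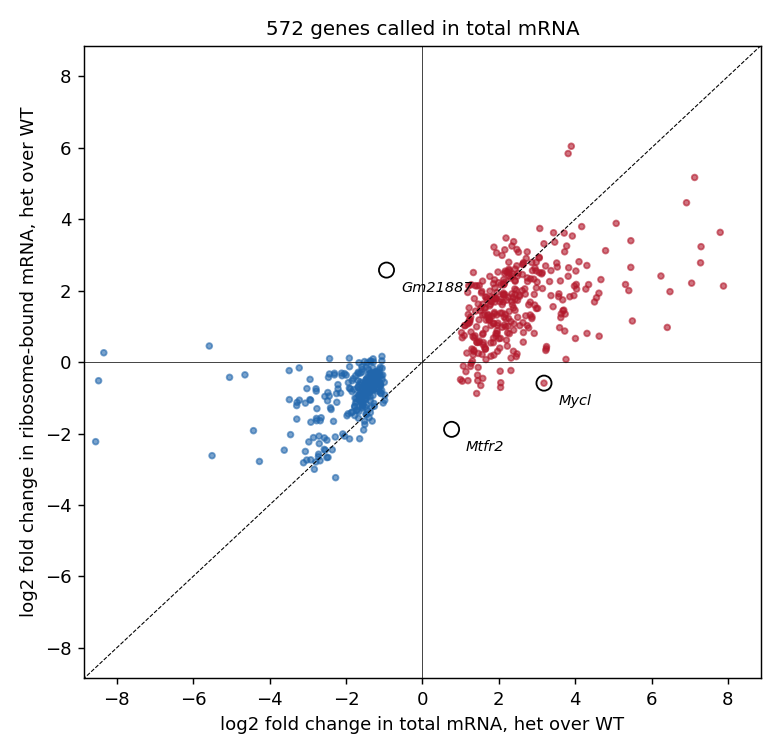
Log2 change, het over WT, in total mRNA (x axis) against ribosome-bound mRNA (y axis) for the 572 genes called in total mRNA, red where higher and blue where lower, with the line of equal change dashed. Circles mark the 3 genes whose changes differed between fractions, of which Mycl is called in total mRNA, and 29 of the 572 points have opposite signs.

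In 1-cell and 2-cell embryos labelled het or WT (whether the embryo or its mother had that genotype is not stated), with 3 libraries a group, edgeR called 0 of the genes that rose or fell in oocytes. At an unadjusted p under 0.05, in either direction, there were 22 of 286 that had risen (7.69%) and 13 of 243 that had fallen (5.35%) in 1-cell embryos, beside 3.94% of all genes. In 2-cell embryos there were 10 (3.50%) and 16 (6.58%), beside 5.88%. No other tool was run. In 1-cell embryos 59.1% of the tested genes that rose in oocytes and 60.9% of those that fell had the same sign. Of all genes tested 58.1% lay above 0 and 39.6% below 0 at that stage, so the first share is near the level of all genes and the second is above it. In 2-cell embryos the shares were 49.0% of each, where 51.1% of all genes lay above 0 and 48.2% below. Het 1-cell libraries 1 and 3 stand apart: mt-Nd1 had 153 and 115 CPM there, 1716 CPM in het library 2 and 1130 to 1328 CPM in WT. Without both, the share over the called genes was 57.7% in place of 59.9%. Het libraries lay below all WT libraries at both embryo stages for 12 (4.94%) of the 243 tested genes that fell in oocytes, beside 0.735% of all genes, and above them for 3 (1.05%) of the 286 that rose, beside 0.740%. Among the 12 were Eif4enif1, Cyp4v3, Muc20 and Muc4. Muc4 had 23.2, 14.0 and 18.6 CPM in het 1-cell embryos (WT, 68.8, 46.7 and 70.8 CPM; log2 -1.74, SE 0.46). In 2-cell embryos it had 5.01, 4.42 and 6.01 against 16.2, 16.8 and 20.4 CPM (-1.79, SE 0.46), with adjusted p of 1 and 0.829. Cyp4v3 had 10.96, 4.93 and 2.92 against 46.2, 21.6 and 31.2 CPM in 1-cell embryos, and in 2-cell embryos it was at 0 in all het libraries and at 5.26, 1.89 and 6.17 CPM in WT. Ccl2 was among the 3 that lay higher, with 4.24, 1.16 and 5.52 against 0.274, 0.706 and 0.771 CPM in 1-cell embryos.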

How the data were processed

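Per the labels' protocols, oocytes were lysed directly, their poly(A) RNA was amplified as full-length cDNA by a single-cell kit, and a transposase cut the cDNA into libraries. The protocols mention no molecular identifiers and no strand marking, so floors cover counting error only. The authors deposited raw read counts per gene, 56196 genes. Per the submitters' processing notes, the tools were featureCounts 1.6.5, HISAT2 2.1.0 and Trim Galore 0.6.4, on mm10. Annotation, strand setting and treatment of multiply mapped reads: not given in the sources used here. Of 28 symbols turned into dates, 27 were restored by gene ID. Coordinates are from GENCODE M21 (mm10), which held 55240 of the IDs.

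All 8 GV libraries (2 per genotype and fraction) entered 1 fit of edgeR 4.0.16 (R 4.3.3) with filterByExpr, TMM scaling, the quasi-likelihood F test and Benjamini-Hochberg adjustment over 22409 genes; "called" means an adjusted p under 0.05. SE is the log2 change divided by the root of F. CPM are TMM-scaled. The functions were tested on simulated counts. Embryo libraries (15) were fitted likewise. An exact permutation test of 2 against 2 libraries cannot go below 0.333, so none was used.

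The comparison, its 36 gene lists and the genes described were chosen with earlier results of these data known. Named genes are Eif4enif1, the 12 highest and 12 lowest changes among called genes of at least 10 CPM whose groups do not overlap and whose symbols are not predicted, pseudogene or clone names, and up to 4 called members per list (2 by p where none). Other called members of a list, Mt1, Mt2, Sec14l3, neighbouring genes and the marker, 4E-T partner and egg-coat genes given as values were named after their values were seen. A few genes that these rules name are not reported here.

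Alternatives were RLE scaling, no filter, only the 4 libraries, DESeq2 1.42.0, a replicate block, thinning to the shallowest library, removal of the GC trend (lowess span 0.3; 99.9% of genes had a GC value) and leaving out each library.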

Additional observations from a re-analysis of the deposited data

Results flagged for a closer look

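The change between het and WT differed between total and ribosome-bound mRNA for 3 genes, by the interaction term of the edgeR fit (adjusted p = 0.0254 for each, n = 2 libraries per group). Mycl had a difference of 3.77 (total minus ribosome-bound log2 change, SE 0.50), higher in both het total-mRNA libraries and lower in both het ribosome-bound libraries. Mtfr2, a regulator of mitochondrial fission, had 108 and 103 CPM in het total mRNA (WT, 57.6 and 66.5 CPM; log2 0.77, not called), and 10.1 and 10.6 against 35.5 and 40.9 CPM on ribosomes, a difference of 2.65 (SE 0.34). The predicted gene Gm21887 had 3.75 and 5.62 against 12.1 and 6.73 CPM in total mRNA and 62.1 and 63.7 against 11.4 and 9.59 CPM on ribosomes, a difference of -3.51 (SE 0.47). Without any 1 of the 4 het libraries or WT total-mRNA library 1 the number of such genes was 0.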

How the results depend on the processing

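The 572 calls (317 higher, 255 lower) became 1554 (803 and 751) without the filter and 1423 (775 and 648) with DESeq2. The number was 383 with only the 4 libraries in the fit (263 and 120), 527 with RLE scaling (346 and 181), 390 of 15111 genes after thinning (226 and 164) and 453 with the GC trend removed (302 and 151). The replicate numbers of het and WT libraries belong to different samples, and same-numbered libraries deviated at a correlation of -0.14. With that replicate block 414 genes were called (258 and 156). Leaving out 1 library gave 69 to 644 calls, 57 to 337 higher and 12 to 307 lower. Of the 572 genes, those an alternative tested (at least 528) kept their sign in it. Every alternative reuses libraries that chose these genes, so kept signs are no independent support. The Eif4enif1 decrease was called in all alternatives but those that left out a library (log2 -1.28 to -1.18). Genes whose changes differed between fractions numbered 3 with RLE scaling, 108 without the filter, 112 with DESeq2, 7 with the oocyte sample as a replicate block (correlations of 0.135 in het and 0.0711 in WT) and 0 to 10 without 1 library. The 1-cell share of shared signs ran from 53.9% to 61.4% without 1 library. The 2-cell share of 49.0% ran from 45.7% to 54.8%, crossing 50% without het library 1 (54.8%), het library 2 (51.2%) or WT library 1 (52.97%). Of 79 called named genes 19 stayed called in every alternative and 0 changed sign. Of 20 not called 13 were called in some alternative, and Lyz2, at 7.65 CPM in WT library 1 and near 0 elsewhere, ran from -10.005 without het library 1 to 3.45 without WT library 1. Where an arm is left with 1 library, it is assumed to vary like the other groups. The depth of het library 1 limits genes below about 1 CPM. The cause of these changes was not tested.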
